A study of Mus musculus with 2 samples.

Results

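The genes described here are 10 enzymes of kynurenine metabolism and NAD synthesis: Tdo2, Ido1, Afmid, Aadat, Kmo, Kynu, Haao, Acmsd, Qprt and Nampt. They were chosen by name, as the rows of the gene tables whose identifier carries one of these symbols in the GENCODE annotation, which found all 10 among 43346 genes. The study sequenced polyadenylated RNA from the kidney of 1 adult C57BL/6J female, a common inbred mouse strain, aged 10 weeks. There was 1 group with no treatment, and its 2 libraries, library 2 and library 1, carry the labels of technical replicates 2 and 1 from a single biological replicate. Library 2 was made later and was no part of the work for which library 1 was first published, per the labels. Every SD below is therefore the spread between 2 libraries of 1 tissue sample, and no difference between animals can be read from it.

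The kynurenine pathway takes apart most dietary tryptophan and is the only route by which mammals make NAD from an amino acid. A dioxygenase opens the indole ring, a formamidase releases kynurenine, and kynurenine then leaves by one of several branches: transamination to kynurenic acid, or hydroxylation and cleavage towards 3-hydroxyanthranilate. Opening of that ring gives an unstable semialdehyde, which closes by itself to quinolinate, the precursor of NAD, unless a decarboxylase first turns it away. Liver and kidney are the organs best known for running the whole route, and in the kidney its enzymes are mostly known from proximal tubule cells.

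Of the 10 genes, 8 reached 1 TPM (a transcript level corrected for transcript length, with an equal total in both libraries) in both libraries, and the 2 dioxygenase genes Tdo2 and Ido1 were under 1 TPM in both. Aadat stood far above the rest at 1556 ± 155 TPM (mean ± SD, n = 2 libraries, as for all such values). With mitochondrial genes and their copies left out and TPM rescaled, its mean was 4409 TPM. It was the 46th most abundant gene of library 2 and the 26th of library 1. Next by mean level came Acmsd at 97.5 ± 2.07 TPM, Haao at 64.9 ± 87.3, Kmo at 57.6 ± 16.4 and Nampt at 55.2 ± 10.9 TPM. Qprt averaged 22.4 ± 23.6 TPM, Kynu 21.02 ± 3.75 and Afmid 17.6 ± 22.4 TPM. The library values of Aadat did not overlap those of Acmsd, those of Nampt did not overlap those of Qprt, and those of Afmid did not overlap those of Tdo2. Those of Tdo2 and Ido1 did not overlap either, but both genes rest on few counts. Other neighbours in this order overlapped: Acmsd with Haao, Haao with Kmo, Kmo with Nampt, Qprt with Kynu, and Kynu with Afmid. Acmsd still lay above Kmo and Nampt in both libraries.

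**Figure D1:**
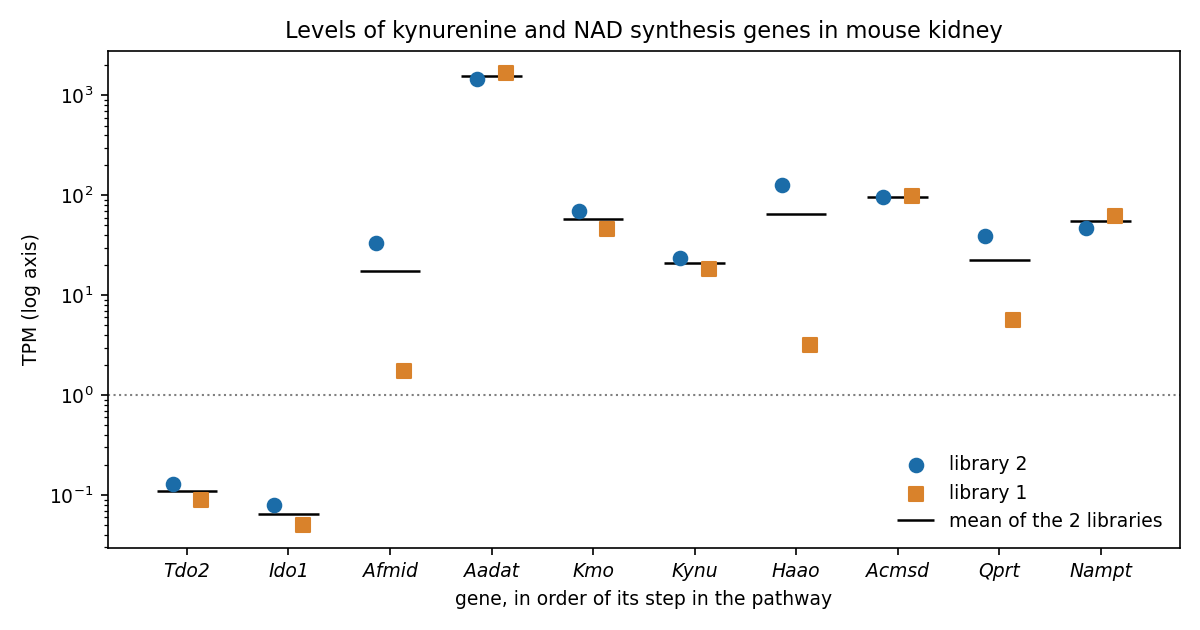
Level of each gene in TPM on a log axis, with genes in the order of their steps, circles for library 2, squares for library 1 and bars for the mean; the dotted line marks 1 TPM. Aadat lies at 1446 TPM in library 2 and 1666 TPM in library 1, Tdo2 and Ido1 lie under 1 TPM in both, and Afmid, Haao and Qprt have the widest gaps between their 2 points.

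The libraries themselves differed in ways that touch every value below. Expected counts, the authors' estimated reads per gene, summed to 20720537 in library 2 and 28263730 in library 1. Mitochondrial genes and 7 copies of them on chromosome 1 held 36.5% of the TPM of library 2 and 74.5% of that of library 1, so TPM of all other genes is compressed in library 1. At 1 TPM or more, 13223 genes were detected in library 2 and 9532 in library 1. Of 7 kidney tubule and podocyte markers, 6 reached 1 TPM in both libraries. In bulk tissue, fewer cells of a type and less RNA per cell cannot be told apart.

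To show the coding sequence behind each of the 8 detected genes, 60 bases from the middle of each coding sequence are printed 5′ to 3′ with G and C in capitals, from the GENCODE M21 transcripts on mm10. They are ordered from the highest to the lowest GC content of the whole transcript, the property by which the library values are compared further down.
Haao: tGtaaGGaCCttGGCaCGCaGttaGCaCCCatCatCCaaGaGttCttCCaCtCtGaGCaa
Qprt: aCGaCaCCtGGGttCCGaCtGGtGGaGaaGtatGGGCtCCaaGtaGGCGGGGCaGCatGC
Afmid: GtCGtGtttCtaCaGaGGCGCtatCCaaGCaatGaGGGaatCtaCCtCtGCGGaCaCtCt
Kmo: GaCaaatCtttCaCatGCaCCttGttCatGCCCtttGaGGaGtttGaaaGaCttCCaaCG
Aadat: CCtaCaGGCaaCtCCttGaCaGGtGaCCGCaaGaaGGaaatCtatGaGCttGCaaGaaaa
Acmsd: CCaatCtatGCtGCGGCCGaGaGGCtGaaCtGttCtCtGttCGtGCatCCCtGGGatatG
Kynu: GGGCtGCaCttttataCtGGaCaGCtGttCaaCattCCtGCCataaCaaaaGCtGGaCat
Nampt: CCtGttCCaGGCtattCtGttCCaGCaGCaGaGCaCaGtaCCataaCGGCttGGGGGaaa
The stretches of Qprt (chr7:127108781-127108840, minus strand), Kmo (chr1:175651587-175651646, plus strand) and Kynu (chr2:43604223-43604282, plus strand) each lie in 1 exon, and the other 5 cross a splice junction. GC content was 61.7% in the Qprt stretch, 45% in that of Kynu and 43.3% in that of Kmo. A stretch this short need not match its transcript: that of Nampt had 53.3% GC, against 43.0% over its whole coding sequence. The middle of the coding sequence was taken after the first 60 bases had been looked at, where Kynu had 58.3% and Nampt 55% GC.

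Of the entry enzymes, Tdo2 and Ido1 were at the limit of detection. Tdo2 (chr3:81957090-81976202, minus strand) encodes tryptophan 2,3-dioxygenase, the main entry enzyme of liver, and had 1 count in library 2 and 9 counts in library 1. Its level was listed as 0.13 TPM in library 2 against 0.09 TPM in library 1. The TPM and the counts point in opposite directions. The single read of library 2 was assigned to a retained-intron transcript of 652 bases, and the 9 reads of library 1 to the coding transcript of 3431 bases. With mitochondrial genes and their copies left out and TPM rescaled, Tdo2 had 0.205 TPM in library 2 against 0.353 in library 1, the direction of the counts. The authors' deposited interval for TPM, for which the sources used here give no level, ran between 0.0769 and 0.886 in library 2 and between 0.0909 and 0.486 in library 1. Ido1 (chr8:24584136-24597009, minus strand), the dioxygenase induced by interferon, had 2 counts in each library, or 0.08 TPM in library 2 against 0.05 TPM in library 1. Both counts lie under the 3 counts that a reading of 0 would allow. Ido1 fell short of the 10 counts over both libraries required for the test described below, so no ratio is given.

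Ido2, the paralogue next to Ido1 in the genome, was the best detected dioxygenase of the 3, with 127 counts (3.04 TPM) in library 2 and 75 counts (0.86 TPM) in library 1. It is named here after its values were seen. Liver RNA was looked for through 6 hepatocyte markers: their summed level was 30.2 TPM in library 2 against 6.79 TPM in library 1, and 2 of 6 reached 1 TPM in both. Alb had 7.05 TPM in library 2 and 3.55 in library 1, Serpina1a had 10.5 in library 2 and 2.18 in library 1, and Apoa2, which was called higher in library 2, had 12.6 in library 2 and 0.97 in library 1. Tat, Cyp8b1 and Ahsg had at most 3 counts in a library. The part of these transcripts in the level of Tdo2 was not tested.

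Afmid (chr11:117825924-117839908, plus strand) encodes the arylformamidase that turns N-formylkynurenine into kynurenine. It had 33.4 TPM and 1090 counts in library 2, against 1.75 TPM and 114 counts in library 1. The libraries were far apart, with library 2 the higher on both scales. This gene shares sequence with a second annotated gene on the same strand, Gm20708, over 1566 of its 3539 exon bases (44.2%), and a stretch of 1414 bases is identical between the transcripts. Gm20708 ran the other way, with 5 counts (0.20 TPM) in library 2 and 247 counts (5.03 TPM) in library 1, so the split of reads between these 2 genes is uncertain. Summed, a choice made after seeing the data, they held 33.6 TPM in library 2 against 6.78 TPM in library 1, and their log2 ratio was 1.14, against 2.80 for Afmid alone.

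At the first branch the kynurenic acid arm had by far the most RNA. Aadat (chr8:60505932-60545677, plus strand), the aminotransferase also called kynurenine aminotransferase II, which acts on alpha-aminoadipate of lysine breakdown as well, had 1446 TPM in library 2 against 1666 TPM in library 1. These came from 37830 counts in library 2 and 81655 counts in library 1. It made up 76.8% of the summed TPM of the 10 genes in library 2 and 87.5% in library 1. Kmo (chr1:175620381-175662116, plus strand) encodes kynurenine 3-monooxygenase of the outer mitochondrial membrane, which commits kynurenine to the NAD arm, and had 69.2 TPM in library 2 against 46.0 TPM in library 1. Kynu (chr2:43555329-43682715, plus strand), the kynureninase that cleaves the side chain, had 23.7 TPM in library 2 against 18.4 TPM in library 1. Aadat was thus 20.9 times as abundant as Kmo in library 2 and 36.2 times in library 1. Against Kynu, Aadat was 61.1 times as abundant in library 2 and 90.7 times in library 1.

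Kmo and Kynu are also known from macrophages and dendritic cells. The summed level of 7 markers of those cells was 207 TPM in library 2 against 9.34 TPM in library 1, and 2 of 7, Lyz2 and Cd74, reached 1 TPM in both. Of these 7 markers, 4 (Csf1r, C1qb, Cd68 and Cd74) were called higher in library 2 by the test described below, against 35.7% of all genes tested. Of 7 kidney tubule and podocyte markers, 5 were called higher, with a summed level of 4917 TPM in library 2 against 641 in library 1. With the trend of the ratio with GC content removed, as described further down, the 2 lists differed. Of the macrophage and dendritic cell markers 5 were then called higher, with a median log2 ratio of 1.40. Of the kidney markers 2 were called higher, with a median of 0.23. None was called lower in either list, and 12.0% of all genes were called higher by that measure. The part of these markers in the levels of Kmo and Kynu was not tested.

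The steps from 3-hydroxyanthranilate towards NAD were unlike each other in how far the libraries lay apart. Haao (chr17:83831156-83847963, minus strand), the 3-hydroxyanthranilate dioxygenase that makes the unstable semialdehyde, had 127 TPM and 2149 counts in library 2, against 3.21 TPM and 102 counts in library 1. Its rank by TPM was 860 in library 2 and 6736 in library 1. Acmsd (chr1:127729413-127767978, plus strand), the decarboxylase that draws this semialdehyde away from NAD, had 96.0 TPM in library 2 against 98.95 TPM in library 1, the closest pair of the 8 detected genes by the ratio of deposited TPM. Qprt (chr7:127107114-127122226, minus strand), the phosphoribosyltransferase that commits quinolinate to NAD, had 39.1 TPM and 1196 counts in library 2, against 5.63 TPM and 323 counts in library 1. Library 2 was the higher for Haao and Qprt. The closeness of Acmsd holds on deposited TPM only: with mitochondrial genes and their copies left out it had 151 TPM in library 2 against 388 in library 1, and its scaled counts, given further down, were lower in library 2.

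The balance of these steps therefore depended on which library was read. Qprt stood at 0.407 of the Acmsd level in library 2 and at 0.0569 of it in library 1, lower than Acmsd in both. Haao stood at 1.32 times Acmsd in library 2 and at 0.0324 of it in library 1, so the order of these 2 genes changed. Nampt (chr12:32819545-32853349, plus strand) encodes the enzyme that starts NAD salvage from nicotinamide, the route that does not use tryptophan, and had 47.5 TPM in library 2 against 62.9 TPM in library 1. Nampt was 1.22 times as abundant as Qprt in library 2 and 11.2 times in library 1, higher in both.

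The deposited TPM of Acmsd was close between the libraries for the gene but not for its 2 annotated transcripts. Acmsd-201, the protein-coding one, held 100% of the gene's TPM in library 2 and 22.9% in library 1. Acmsd-202, annotated as a processed transcript without a coding sequence, was listed at 0% in library 2 and held 77.1% in library 1. In TPM, Acmsd-201 had 96.0 in library 2 and 22.6 in library 1, so the near equality of the gene rests on transcripts of different kinds. The 2 transcripts share their last 3 exons, 1968 bases at 41.2% GC, which are 72.4% of Acmsd-201 and 94.5% of Acmsd-202. Acmsd-201 alone has 7 further exons with 749 bases at 50.1% GC, and Acmsd-202 alone has 1 exon of 114 bases at 51.8% GC, chr1:127756757-127756870 on the plus strand. That exon, the only sequence by which a read can be assigned to Acmsd-202 alone apart from its junction, is printed with G and C in capitals.
Acmsd-202 exon 1: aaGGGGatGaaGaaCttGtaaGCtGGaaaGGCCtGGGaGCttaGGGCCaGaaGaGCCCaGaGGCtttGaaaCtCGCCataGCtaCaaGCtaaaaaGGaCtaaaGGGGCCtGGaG
The tables give no reads per exon, so the number of reads on those 114 bases is unknown here.

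**Figure D2:**
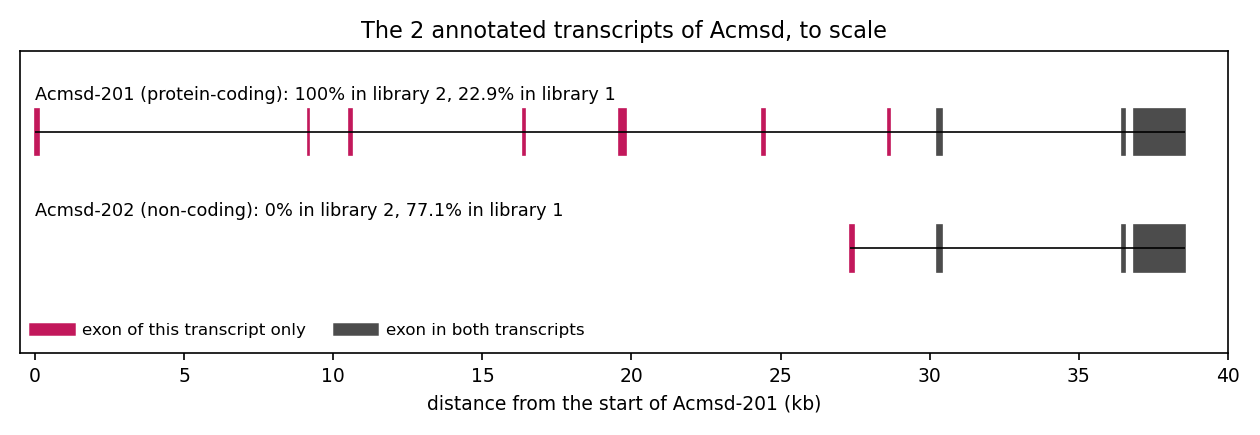
Exons of the 2 annotated Acmsd transcripts, to scale, by distance in kilobases from the start of Acmsd-201; coloured exons belong to 1 transcript and grey exons to both. Most of the sequence of Acmsd-202 lies in the 3 shared exons, and its share of the gene was 0% in library 2 and 77.1% in library 1.

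Among the other genes, Kynu also differed in its transcripts. Kynu-201, of 2733 bases, held 65.01% of the gene in library 2 and 88.6% in library 1, and the shorter coding transcript Kynu-203, of 1587 bases, held 31.7% in library 2 and 6.32% in library 1. Kmo-201 held 92.1% of Kmo in library 2 and 83.7% in library 1. Afmid-201 held 87.5% of Afmid in library 2 and 96.6% in library 1, where the gene had only 114 counts. Haao, Aadat and Nampt have a single transcript in the tables, and Qprt had all its counts in 1 of 3. All these shares are estimates by the authors' quantifier.

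**Figure D3:**
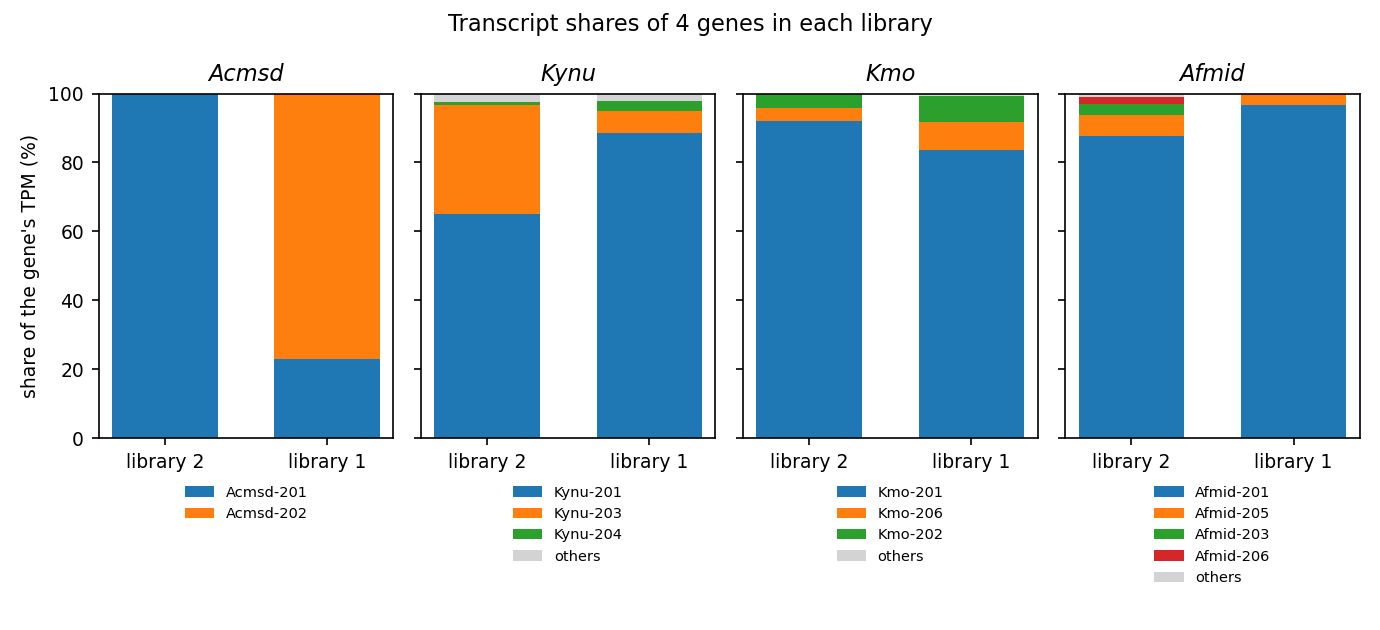
Share of each transcript in its gene's TPM (percent, bars starting at 0) for Acmsd, Kynu, Kmo and Afmid, library 2 left of library 1. The main transcript is the same in both libraries for Kynu, Kmo and Afmid, and for Acmsd it is Acmsd-201 in library 2 and Acmsd-202 in library 1.

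The gap between the libraries was then measured on counts scaled by TMM, which sets library sizes from the bulk of genes. A gene was called where a two-sided exact binomial test gave a Benjamini-Hochberg adjusted p under 0.05 over all 15553 genes with at least 10 counts, with a log2 ratio of at least 1 in size. The ratio is library 2 over library 1, and the test compares these 2 libraries, not conditions. Of the 10 genes, 9 could be tested: 3 were called higher in library 2 (Afmid, Haao and Qprt), 5 lower (Tdo2, Kynu, Acmsd, Aadat and Nampt) and Kmo was not called, since its log2 ratio of -0.73 missed the size required (adjusted p of 1.51e-87, exact test). Among all genes tested, 60.9% were called, 35.7% higher and 25.2% lower, so a call alone does not set these genes apart. The median log2 ratio was -1.09 over the 9 genes and 0.12 over all genes tested.

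Haao had the highest ratio of the 9, 15.3-fold (95% interval 12.6 to 18.9, counting error only), or 3.94 on the log2 scale with a counting error of 0.15. Afmid was 6.95-fold higher in library 2 (5.74 to 8.53), with an adjusted p of 3.01e-139 in the exact test. Qprt was 2.70-fold higher (2.39 to 3.06, adjusted p of 1.43e-65, exact test). In the other direction, the scaled counts of library 2 were 0.294 times those of library 1 for Nampt (0.282 to 0.306), 0.338 times for Aadat (0.334 to 0.342) and 0.468 times for Acmsd (0.450 to 0.487). Kynu stood at 0.448 times (0.410 to 0.488) and Kmo at 0.602 times (0.573 to 0.634). Tdo2, from 1 count in library 2 and 9 in library 1, had a ratio of 0.122, or -3.03 on the log2 scale, with the prior count of 0.5. Its adjusted p was 0.00339 in the exact test. Without the prior count the ratio of Tdo2 was 0.0810, with exact bounds at 0.00185 and 0.585.

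These directions depend on the scale. On deposited TPM, Kmo was 1.505-fold and Kynu 1.29-fold higher in library 2, the opposite of their scaled counts, while Acmsd (0.970), Aadat (0.868) and Nampt (0.755) were lower on both. With mitochondrial genes and their copies left out and TPM rescaled, Kmo had 109 TPM in library 2 against 181 TPM in library 1, and Kynu had 37.3 TPM in library 2 against 72.1 TPM in library 1. Haao, at 199 TPM in library 2 against 12.6 in library 1, Afmid, at 52.6 TPM in library 2 against 6.87 in library 1, and Qprt, at 61.6 TPM in library 2 against 22.1 in library 1, stayed higher in library 2 on this scale. Aadat had 2278 TPM in library 2 against 6539 in library 1, and Nampt had 74.9 TPM in library 2 against 247 in library 1, both lower in library 2 by more than on deposited TPM. Scaling by total counts moved the all-gene median log2 ratio up by 0.90, and then none of the 9 genes was called lower while the same 3 were called higher. Of all genes, 7677 were then called higher and 720 lower, against 5552 and 3913 with TMM.

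For the 8 detected genes, the direction of the ratio went with the GC content of the most abundant transcript. The 3 genes called higher in library 2 had the highest GC content: 55.8% for Haao, 55.5% for Qprt and 53.2% for Afmid. The other 5 detected genes lay at 45.05% for Kmo, 44.6% for Aadat, 43.7% for Acmsd, 41.9% for Kynu and 40.3% for Nampt, and all 5 had ratios under 1. The same held across the table: the median log2 ratio was -1.36 over 2338 genes of 40 to 45% GC and 3.51 over 2306 genes of 55 to 60% GC. For a single gene, the part of GC content in this ratio cannot be told apart from other differences between the 2 libraries.

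With the smooth GC trend of all genes removed, 2 of the 9 genes were called higher in library 2 (Afmid and Haao) and 1 lower (Qprt). By this measure 22.7% of 15496 genes were called, 12.0% higher and 10.7% lower. The median log2 ratio was then 0.13 over the 9 genes and -0.005 over these 15496. Qprt changed direction, with a log2 ratio of -1.23 after removal against 1.43 before it, because genes of its GC content had a trend of 2.66. Haao kept 1.13 of its 3.94 and Afmid 1.41 of its 2.80 on the log2 scale. Afmid and Gm20708 summed had a log2 ratio of 1.14 before removal, under the trend of 1.39 at the GC content of Afmid. The trend was not removed from that sum, so whether the call of Afmid depends on the uncertain split of reads was not tested. Kmo at 0.25, Kynu at 0.32, Acmsd at 0.13, Nampt at -0.10 and Aadat at -0.49 were all within 1 of 0 and were not called. The first 3 of these changed sign. Tdo2 lost its call, at -1.97 with an adjusted p of 0.168 in the exact test, and it was also lost with total counts, at -2.30 with an adjusted p of 0.0627. The GC content used for Tdo2, 42.9%, was that of the retained-intron transcript, which had 1 count in library 2. The coding transcript, with 9 counts in library 1, has 39.6% GC, and removal at that value was not tested. The transcripts of Haao and Aadat in the tables, 1222 and 1780 bases, differ by more than 10% from the reference of 1381 and 1972 bases, so the GC values of these 2 are of the longer reference.

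**Figure D4:**
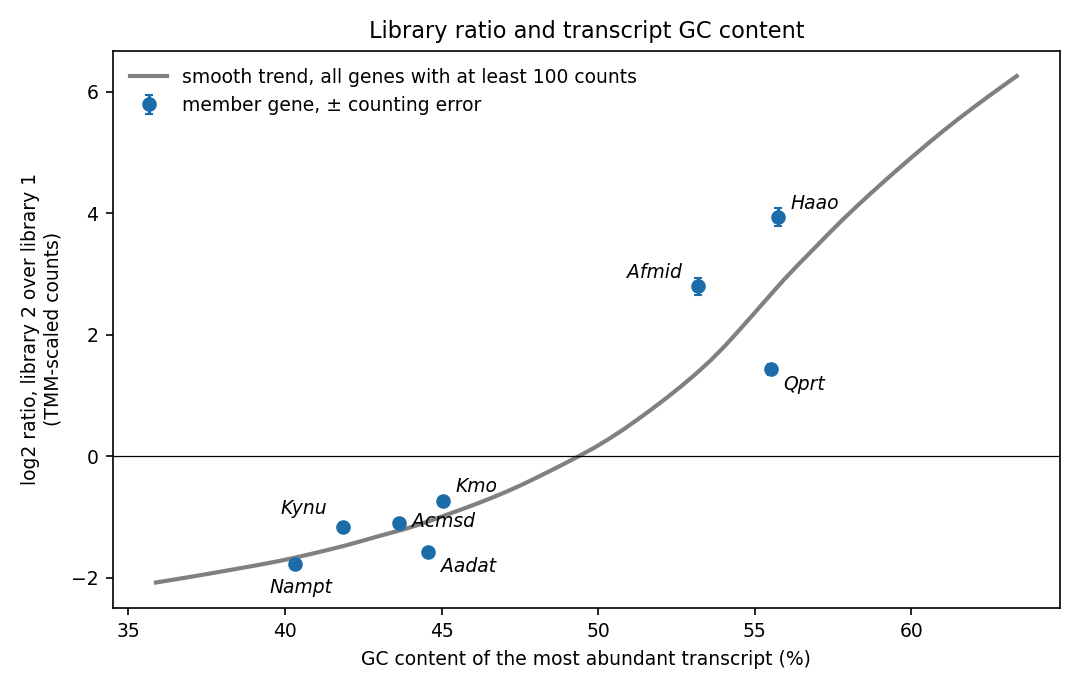
Log2 ratio of TMM-scaled counts, library 2 over library 1, against GC content of the most abundant transcript in percent; points are the 8 detected genes with their counting error and the grey line is the smooth trend over 12022 genes with at least 100 counts. Haao and Afmid lie above the line, Qprt lies under it, and the 5 genes of 40 to 45% GC lie within 0.5 of it. The point of Afmid is without Gm20708.

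The genes around the pathway are given for comparison, from lists chosen by function. Beside the calls of every list, 35.7% of all genes tested were called higher in library 2 and 25.2% lower, with a median log2 ratio of 0.12. With the GC trend removed, these shares were 12.0% higher and 10.7% lower. Calls within a list are a description beside these shares. Tryptophan supply was well represented: 6 of 7 transport genes reached 1 TPM in both libraries. Cltrn, the collectrin that carries neutral amino acid transporters to the brush border, had 1578 TPM in library 2 against 1878 TPM in library 1, close to the level of Aadat. Slc6a19, the apical neutral amino acid transporter, had 127 TPM in library 2 and 37.3 in library 1, and Slc3a2, the heavy chain of basolateral exchangers, had 133 TPM in library 2 and 16.6 in library 1. Of the 7, 3 were called higher in library 2 (Slc7a8, Slc7a5 and Slc3a2) and 2 lower (Cltrn and Slc36a4), with a median log2 ratio of 0.51. With the GC trend removed, Slc3a2 was called lower and none higher.

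Of 7 other enzymes of tryptophan and kynurenine, 3 reached 1 TPM in both libraries. Aldh8a1, the dehydrogenase that follows Acmsd on the way out of the NAD route, had 222 TPM in library 2 against 52.1 TPM in library 1. Got2 and Kyat3, which can also transaminate kynurenine, had 156 and 107 TPM in library 2, against 13.4 and 54.0 TPM in library 1, all far under Aadat. Tph1 had 0.19 TPM in library 2 against 0.02 TPM in library 1, and Tph2 was at 0 counts in both: these are the hydroxylases that lead tryptophan to serotonin. Of the 5 that could be tested, 2 were called higher in library 2 (Kyat1 and Got2) and none lower, with a median log2 ratio of 0.73. With the GC trend removed, only Kyat1 was called higher and none lower.

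Of 11 genes that complete, salvage or phosphorylate NAD, 8 reached 1 TPM in both. Nadk, the cytosolic NAD kinase, had 80.6 TPM in library 2 against 12.4 TPM in library 1, and Slc25a51, the mitochondrial NAD carrier, had 66.9 TPM in library 2 against 22.7 TPM in library 1. Nnt, the transhydrogenase in which C57BL/6J mice are known to carry a deletion, had 53.9 TPM in library 2 against 29.2 TPM in library 1. Nmnat2 had 0 counts in library 2 and 2 in library 1, and Nmrk2 had 0 in both. Of 9 tested, 4 were called higher in library 2 (Nmnat1, Nadsyn1, Naprt and Nadk) and 1 lower (Nadk2), with a median of 0.83. Naprt, which salvages nicotinic acid and is named after its values were seen, had 543 counts in library 2, against 0 in library 1; with 3 counts taken as the limit for library 1, it was at least 132-fold higher in library 2. Its transcript has 59.4% GC. With the GC trend removed, only Naprt of this list was called higher and none lower. The bound of 132-fold was not corrected for the trend.

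Of 12 genes that consume NAD or clear nicotinamide, 7 reached 1 TPM in both libraries. Sirt3, the mitochondrial deacetylase, had 74.3 TPM in library 2 against 0.34 TPM in library 1, Sirt2 had 56.6 TPM in library 2 against 4.95 TPM in library 1, and Sirt1 had 8.15 TPM in library 2 against 14.95 TPM in library 1. Sarm1 and Aox1 were under 1 TPM in both. Of 11 tested, 5 were called higher in library 2 (Parp1, Sirt2, Sirt3, Sirt6 and Nnmt) and 2 lower (Cd38 and Sirt1), with a median of 0.62. Sirt6, with 110 counts in library 2 against 0 in library 1, was at least 26.7-fold higher by the same limit. With the GC trend removed, only Sirt3 and Sirt6 of this list were called higher and none lower. The adjusted p of Sirt6 was then 0.0423 in the exact test. Its transcript has 58.4% GC, and the trend was 4.11 on the log2 scale at 58.2% GC. With 0 counts in library 1 its ratio rests on the prior count, and the bound of 26.7-fold was not corrected for the trend. Whether Sirt6 reaches the size required after removal therefore cannot be told.

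Of 9 sensors and regulators, 6 reached 1 TPM in both. Hnf4a, a transcription factor of proximal tubule and liver, had 224 TPM in library 2 against 34.2 TPM in library 1, and Ppargc1a, a coactivator of mitochondrial genes known to raise NAD synthesis in mouse kidney, had 30.1 TPM in library 2 against 25.9 TPM in library 1. Cyp1b1, a target of the aryl hydrocarbon receptor that kynurenines can bind, had 14.8 TPM in library 2 against 18.5 TPM in library 1. Cyp1a1, Ahrr and Gpr35 were under 1 TPM in both. Of 9 tested, 1 was called higher (Hnf4a) and 3 lower (Ahr, Cyp1b1 and Ppargc1a), with a median of -0.51. With the GC trend removed, none of the 9 was called.

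**Figure D5:**
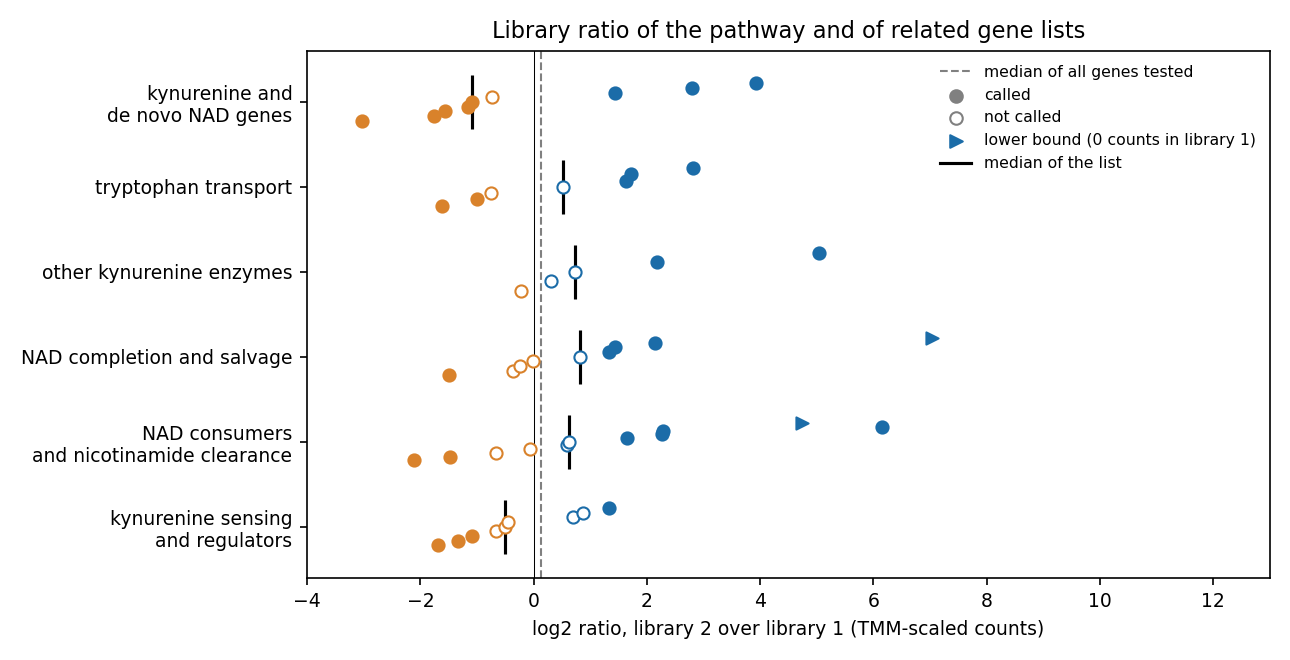
Log2 ratio of TMM-scaled counts, library 2 over library 1, for each tested gene of the pathway and of 5 related lists; filled points were called, open points were not, triangles are lower bounds for genes at 0 counts in library 1, black bars are list medians and the dashed line is the median of all genes tested. The medians lie between -1.09 for the kynurenine and NAD genes and 0.83 for NAD completion and salvage, and each list holds genes on both sides of 0. With the GC trend removed, which is not drawn, they lay between -0.28 for the sensors and regulators and 0.50 for NAD completion and salvage. The kynurenine and NAD genes were then at 0.13.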

How the data were processed

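Polyadenylated RNA of 1 kidney sample was sequenced in 2 libraries with a stated size range of 350 to 450, per the labels. Gene and transcript tables on mm10 with GENCODE M4 were deposited; names of the aligner and quantifier were not given in the sources used here. Per the file headers, the deposited values are expected counts (estimated reads, not normalized), posterior mean counts, TPM, FPKM (proportional to TPM within a library, not used further), transcript shares in percent, and a lower and an upper credibility bound of TPM as a signal per gene. That interval surrounds the posterior mean TPM, so a deposited TPM can lie outside it, as for Aadat.

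Symbols and coordinates were those of GENCODE M21, also on mm10, which matched 42462 of 43346 rows. Expected counts were rounded and scaled by TMM (edgeR 4.0.16, R 4.3.3). With a single library a side no residual degrees of freedom remain for a quasi-likelihood fit. A two-sided exact binomial test, conditional on each gene's total, was used instead (scipy 1.17.1 under Python 3.11.15), adjusted by Benjamini-Hochberg over all genes with at least 10 counts, and log2 ratios used a prior count of 0.5. The p-values rest on counting error alone and do not measure the spread between technical replicates. Intervals are exact at 95%, and these and the floor of 3 counts for a reading of 0 cover counting error only. GC content came from the reference transcript of the most abundant transcript. Its trend was smoothed by locally weighted regression, 20% span (statsmodels 0.14.6) over genes with at least 100 counts. Shared sequence was searched with blastn 2.17.0 at 95% identity; besides Afmid, Qprt had matches of at most 144 bases, 7.02% of its transcript. The test was checked on simulated counts.

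The 10 genes and all lists were chosen with earlier results of these data known. The text names all 10, their transcripts with a share of at least 10% in either library, the 3 genes of highest mean TPM of each list, those under 1 TPM in both libraries, and Nnt. Called list genes, Ido2, Naprt and Sirt6 were named after their values were seen. No genes of like pattern are named, since 2 libraries give only 1 ratio a gene. Alternatives were DESeq2 1.42.0 size factors, total counts, other filters and prior counts, posterior means, and GC removal.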

Additional observations from a re-analysis of the deposited data

How the results depend on the processing

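Calls among the 10 genes held with DESeq2 size factors, posterior mean counts, a filter of 1 count and a prior count of 5. Scaling by total counts left 0 genes called lower in library 2 and turned the log2 ratio of Kmo to 0.17; over all genes it left 720 called lower. Totals without mitochondrial genes and their copies left 3 called lower, and over all genes 6043 called higher and 2931 lower. With the GC trend removed under the 10% length rule, which drops Haao and Aadat, 1 gene was called higher and 1 lower, and over all genes 1690 were called higher and 1596 lower. The log2 ratio then became 0.26 for Kmo, 0.32 for Kynu, 0.13 for Acmsd and -1.24 for Qprt. With GC of any reference length, an alternative chosen after seeing the data, 1 gene was called lower, 1854 of all genes were called higher and 1664 lower, and the ratios became 0.25 for Kmo, 0.32 for Kynu, 0.13 for Acmsd and -1.23 for Qprt. Without a threshold on the ratio, 6152 of all genes were called lower. Acmsd-201 alone, also chosen after seeing the data, had a log2 ratio of 0.72, against -1.09 for the gene. The cause of these changes was not tested.

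With a threshold of 0.5 or 5 TPM or rescaling without mitochondrial genes, the number of genes past the threshold in both libraries lay within 1.5 times of 8. Leaving out a library leaves no ratio to test, and the mean TPM of each gene then moves to the other library's value, within 1 SD by construction. No paired analysis was possible because the series has 1 group. Depth limits Tdo2 and Ido1, at 10 and 4 counts over both libraries.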
